A study of Mus musculus with 25 samples.

Results

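Open chromatin at the genes of 9 homing receptors was measured in fetus/graft-specific CD8+ T cells of mice. The genes were Cxcr3, Cxcr4, Cxcr5, Cxcr6, Ccr2, Ccr4, Ccr9, Cx3cr1 and S1pr5. A peak was counted for a gene when that gene had the nearest protein-coding gene start to the midpoint of the peak, or when the midpoint lay inside the gene (GENCODE vM39 on GRCm39). This gave 27 of the 13527 peaks of the count table. Cxcr4 had 12 of them, Cx3cr1 and Cxcr5 had 4 each, Ccr9 had 3, and Cxcr3 and Cxcr6 had 2 each. Ccr2, Ccr4 and S1pr5 had none. By the gene start 22 were counted, and 5 lay inside a gene whose start was not the nearest.

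ATAC-seq uses a transposase that inserts adapters where DNA is accessible, so that the reads counted over a peak follow how open it is. The cells, called T_FGS, were sorted from spleen and lymph nodes of female C57BL/6 mice with a tetramer of the major histocompatibility molecule Kb and an OVA peptide. The fathers and skin donors, 2W-OVA.BALB/c mice, carry OVA as a constitutively expressed transgene, so the cells recognize 1 antigen shared by graft and fetus. Naive mice had neither graft nor pregnancy (3 libraries), while Sensitized mice (4 libraries) had been given skin of the paternal strain and rejected it. The labels name no subset for either group. N+P mice went through a semi-allogeneic pregnancy without a graft, S+P mice through a graft and then the pregnancy, and their cells were taken in the first days after birth. Those of both pregnant groups were divided by the inhibitory receptor PD1 and the ectoenzyme CD73. C1 (N+P, 3 libraries) and C4 (S+P, 4 libraries) are PD1-, C5 (N+P, 3 libraries, and S+P, 4 libraries) is PD1+CD73+, and C7 (S+P, 4 libraries) is PD1+CD73-. By the paper's design, S+P mice were mated at the time after the graft from which Sensitized mice were studied. S+P cells therefore came later after the graft than Sensitized cells. Per the methods, the mice were bought as young adults and cell suspensions were prepared from individual mice. The labels number the libraries without naming a mouse, and subsets of the same number share a stem in their column names. The main fit took all libraries as separate, so its p-values measure the spread between these libraries. Fits with the replicate number as a block are given as an alternative.

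Chemokine receptors are G protein-coupled receptors that steer leukocytes along gradients of small secreted proteins, the chemokines. Cxcr3, Cxcr6, Ccr2 and Cx3cr1 are known from T cells that enter inflamed tissue, and Ccr4 from T cells that home to skin. Cxcr4, Cxcr5 and Ccr9 also direct cells in bone marrow, B cell follicles and gut, and S1pr5 is a receptor for the lipid sphingosine 1-phosphate rather than for a chemokine. In CD8+ T cells, Cx3cr1 marks differentiated effector cells, and Cxcr5 marks a subset of chronically stimulated cells that keeps the capacity to divide. A peak near a gene need not act on that gene.

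Peaks are named by the gene and the distance in bp of the midpoint from the most upstream start of the gene, with minus for upstream. The sequences below are 300 bases around the midpoints of 6 of the peaks on which the results turn, on the plus strand of GRCm39. Capitals mark matches to 7 transcription factor motifs searched on both strands. The motifs were AGGTGTNA (T-box), TGANTCA (AP-1), TGTGGTT (RUNX), CAGGAAGT (ETS), TGGAAAA (NFAT), CTTTGAA (TCF/LEF) and GGGNGTGG (KLF). Cx3cr1 and Cxcr3 are shown for the peaks that opened with sensitization.
Cx3cr1 +10272, chr9:119888524-119888823: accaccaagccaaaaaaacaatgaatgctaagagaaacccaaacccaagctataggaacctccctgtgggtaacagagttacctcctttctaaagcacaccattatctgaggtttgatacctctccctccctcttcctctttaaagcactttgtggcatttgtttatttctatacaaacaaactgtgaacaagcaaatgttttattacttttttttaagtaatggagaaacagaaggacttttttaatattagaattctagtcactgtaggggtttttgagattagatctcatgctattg
Cxcr3 −3193, chrX:100780919-100781218: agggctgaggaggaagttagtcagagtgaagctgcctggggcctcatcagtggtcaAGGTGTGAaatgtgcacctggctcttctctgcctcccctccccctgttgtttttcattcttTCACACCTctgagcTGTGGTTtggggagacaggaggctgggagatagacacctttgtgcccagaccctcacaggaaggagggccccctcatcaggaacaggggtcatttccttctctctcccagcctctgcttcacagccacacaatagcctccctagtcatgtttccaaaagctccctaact
Ccr9 is shown for a peak that closed.
Ccr9 +78682, chr9:123585714-123586013: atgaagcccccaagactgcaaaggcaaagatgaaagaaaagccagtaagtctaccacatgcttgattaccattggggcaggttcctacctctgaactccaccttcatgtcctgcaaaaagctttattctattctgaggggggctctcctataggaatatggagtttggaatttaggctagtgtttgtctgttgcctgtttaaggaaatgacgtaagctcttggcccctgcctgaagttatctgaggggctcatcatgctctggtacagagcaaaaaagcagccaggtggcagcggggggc
Cxcr4 is shown for 1 peak that closed and for a pair of distant peaks that were highest in S+P C5 by group means.
Cxcr4 −10409, chr1:128530304-128530603: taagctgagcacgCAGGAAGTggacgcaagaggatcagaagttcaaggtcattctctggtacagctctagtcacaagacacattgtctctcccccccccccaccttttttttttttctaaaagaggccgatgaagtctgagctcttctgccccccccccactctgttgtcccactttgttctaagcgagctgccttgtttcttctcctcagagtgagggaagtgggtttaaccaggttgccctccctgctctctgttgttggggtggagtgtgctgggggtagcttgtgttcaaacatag
Cxcr4 −190109, chr1:128710004-128710303: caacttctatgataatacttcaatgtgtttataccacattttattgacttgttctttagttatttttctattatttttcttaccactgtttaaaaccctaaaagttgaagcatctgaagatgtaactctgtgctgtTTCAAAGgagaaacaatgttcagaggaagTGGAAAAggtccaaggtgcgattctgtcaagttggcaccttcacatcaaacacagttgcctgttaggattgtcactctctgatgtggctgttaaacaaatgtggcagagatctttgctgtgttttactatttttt
Cxcr4 −216405, chr1:128736300-128736599: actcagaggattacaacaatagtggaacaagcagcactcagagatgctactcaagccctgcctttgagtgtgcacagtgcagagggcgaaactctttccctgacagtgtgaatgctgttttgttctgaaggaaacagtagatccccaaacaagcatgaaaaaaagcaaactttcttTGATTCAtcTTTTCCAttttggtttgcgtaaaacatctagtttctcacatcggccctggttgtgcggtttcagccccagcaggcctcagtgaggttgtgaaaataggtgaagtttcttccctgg
The Cxcr3 −3193 window held 2 T-box matches and 1 RUNX match. The Cxcr4 −10409 window held an ETS match, the Cxcr4 −190109 window an NFAT and a TCF/LEF match, and the Cxcr4 −216405 window an AP-1 and an NFAT match 2 bases apart. The windows of Cx3cr1 +10272 and Ccr9 +78682 held none of these letters. Of all 27 windows, 4 held the T-box motif, against 4.03% of the 13527 windows of the table. AP-1 was in 4 (9.16% of all windows), RUNX in 6 (10.8%), ETS in 4 (6.72%), NFAT in 4 (4.87%), TCF/LEF in 3 (5.34%) and KLF in 3 (16.9%). No match was found in 10 of the 27. Median GC content was 47.7% over these windows and 57.3% over all. These counts are descriptions, and a match does not show that a factor bound there.

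Total counts in peaks ranged from 2430890 (S+P C4 replicate 1) to 25419715 per library. The cells carried accessible promoters of T cell genes. Of the markers read, Cd8a and Cd8b1 belong to CD8+ T cells and the Cd3 genes to all T cells. All 5 markers (Cd8a, Cd8b1, Cd3e, Cd3d and Cd3g) had promoter peaks, and their summed normalized count ranged over libraries from 2640 to 3392 in Naive, 2526 to 2709 in N+P C1, 2712 to 2761 in N+P C5, 2290 to 3347 in Sensitized, 2811 to 3252 in S+P C4, 2914 to 3240 in S+P C5 and 2882 to 3264 in S+P C7. No promoter peak was in the table for any of 6 B cell, 6 myeloid and 3 NK cell markers. Of 3 markers of CD4+ T cells, Foxp3 had a promoter peak, with 642.6 to 885 normalized counts over the libraries. That was above the group means of the Cd8a promoter (203.1 in N+P C1 to 379.4 in S+P C4). The sum over the 5 Cd8 and Cd3 genes was higher in all S+P C4 than in all N+P C1 libraries, as for C5 of S+P over C5 of N+P. Its part in the differences between these groups was not tested.

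The Sensitized libraries did not form 1 group. Replicates 3 and 4 correlated more closely over all peaks with the N+P C5 mean (r = 0.973 and 0.955) than with the other Sensitized libraries (0.918 and 0.937), and replicate 1 more closely with S+P C4 (0.931 against 0.868). Some receptor peaks were divided in the same way, and others, such as Cxcr5 +35125 and Cxcr6 +0, were not. At Cxcr4 −10409 the libraries labelled Sensitized held 184, 192, 582 and 508.2 normalized counts (counts divided by the DESeq2 size factor), and at Cx3cr1 +10272 they held 161, 123, 20.6 and 48.8. Counts and called peaks in comparisons with Sensitized are therefore also given without replicates 3 and 4, a choice made after the values were seen. S+P C4 replicate 1, the shallowest library, was nearest to N+P C5 (0.923, against 0.869 for its own group).

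Counts were compared in 12 comparisons with DESeq2, fitted over all peaks and libraries. Calls required an adjusted p below 0.1 together with a log2 fold change beyond 0.9 in size. They were counted as opening when the group named first was higher and as closing when it was lower. The last comparison, the C5 interaction, asks if the change of C5 cells with pregnancy depended on sensitization, as the S+P C5 difference from Sensitized less the N+P C5 difference from Naive. All 27 peaks had a mean of at least 100 normalized counts over the libraries (117.5 to 1458). At least 1 comparison called 16 of the 27, against 23% of all peaks, and 11 were called in none. Of those 16, 7 lay at Cxcr4, 4 at Cx3cr1, 2 each at Cxcr5 and Cxcr3, and 1 at Ccr9. Several comparisons share a group, so their calls are not independent. A larger share of cells with an open site and a more open site in each cell cannot be told apart in such pooled cells.

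The effect of rejecting a graft was read from Sensitized against Naive. It called 5 of the 27 peaks as opening, against 7.22% of all peaks, and 2 as closing, against 1.4%. The opening peaks were both Cxcr3 peaks, Cx3cr1 +10272, Cx3cr1 +1558 and Cxcr4 −216405, and the closing peaks were Cxcr4 −10409 and Ccr9 +78682. With loess offsets the split was 2 opening and 2 closing, beside 5.26% and 2.62% of all peaks. It was 6 and 3 without Sensitized replicates 3 and 4, beside 9.44% and 5.73%, as Cxcr4 −174861 (0.92, adjusted p = 5.98e-06) and Cxcr5 +28621 (−0.92, 0.0111) were also called. After pregnancy, S+P C4 against N+P C1 called 9 as opening (9.62% of all peaks) and 2 as closing (2.99%), and S+P C5 against N+P C5 called 12 as opening (10.3%) and 2 as closing (6.97%). With loess offsets both splits were 7 and 2, beside 7.16% opening and 5.87% closing over all peaks in the first and 6.62% and 8.46% in the second, where closing then exceeded opening.

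In mice without a graft, no receptor peak was called with pregnancy. DESeq2 called 0 of the 27 peaks in N+P C1 against Naive (0.0205% of all peaks with an adjusted p), 0 in N+P C5 against Naive (0.0262%) and 0 in N+P C5 against N+P C1 (0.0% of all peaks). At an unadjusted p under 0.05 the counts were 9, 0 and 3, beside 19%, 17.5% and 2.28% of all peaks, and edgeR called 0 in each. All 9 were lower in N+P C1 than in Naive, while 9.13% of all peaks were lower and 9.88% higher at that p, and the median log2 fold change over the 27 peaks was −0.36 in that comparison, against −0.02 over all peaks. Among them Cxcr4 −195035, with −0.75 ± 0.25, passed on the adjusted p (0.0611) and missed the fold threshold. Cxcr5 +35125, with −0.80 ± 0.30 (unadjusted p = 0.00815) and no adjusted p in that fit, was called lower in N+P C1 without Naive replicate 3 (−1.0, adjusted p = 0.0192). In the first 2 of these comparisons only 4 of the 27 peaks kept an adjusted p after the filter of DESeq2 on low counts.

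In sensitized mice, each subset after pregnancy was compared with Sensitized. Pregnancy and the longer time since the graft cannot be told apart in these comparisons. S+P C4 against Sensitized called 0 opening (0.562% of all peaks) and 1 closing (0.296%). S+P C5 against Sensitized called 4 opening (3.08%) and 2 closing (3.67%), and S+P C7 against Sensitized 4 opening (3.84%) and 3 closing (8.03%). Without Sensitized replicates 3 and 4, the 3 comparisons gave 0 opening and 4 closing, 3 opening and 0 closing, and 3 opening and 3 closing, beside 0.924% and 1.38%, 2.16% and 1.09%, and 2.03% and 4.93% of all peaks. Loess offsets gave 1 opening and 1 closing, 2 and 2, and 1 and 3, beside 0.562% and 0.429%, 1.46% and 4.78%, and 1.72% and 8.8% of all peaks. Between the subsets of S+P mice, C5 against C4 called 6 opening (3.12%) and 1 closing (2.0%), and C7 against C5 called 0 opening (0.266%) and 2 closing (2.11%). With loess offsets these splits were 4 and 3 (1.83% and 3.39% of all peaks, where closing then exceeded opening) and 2 and 2 (0.355% and 2.17%). With the replicate number as a block they were 6 and 1 (3.27% and 2.22%) and 2 and 2 (0.414% and 2.86%). The C5 interaction called 4 above 0, meaning more opening in sensitized mice (3.04%), and 1 below 0 (2.93%), with loess offsets 2 and 1 (1.49% and 5.02%) and without Sensitized replicates 3 and 4 2 and 0 (1.4% and 0.954%).

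**Figure D1:**
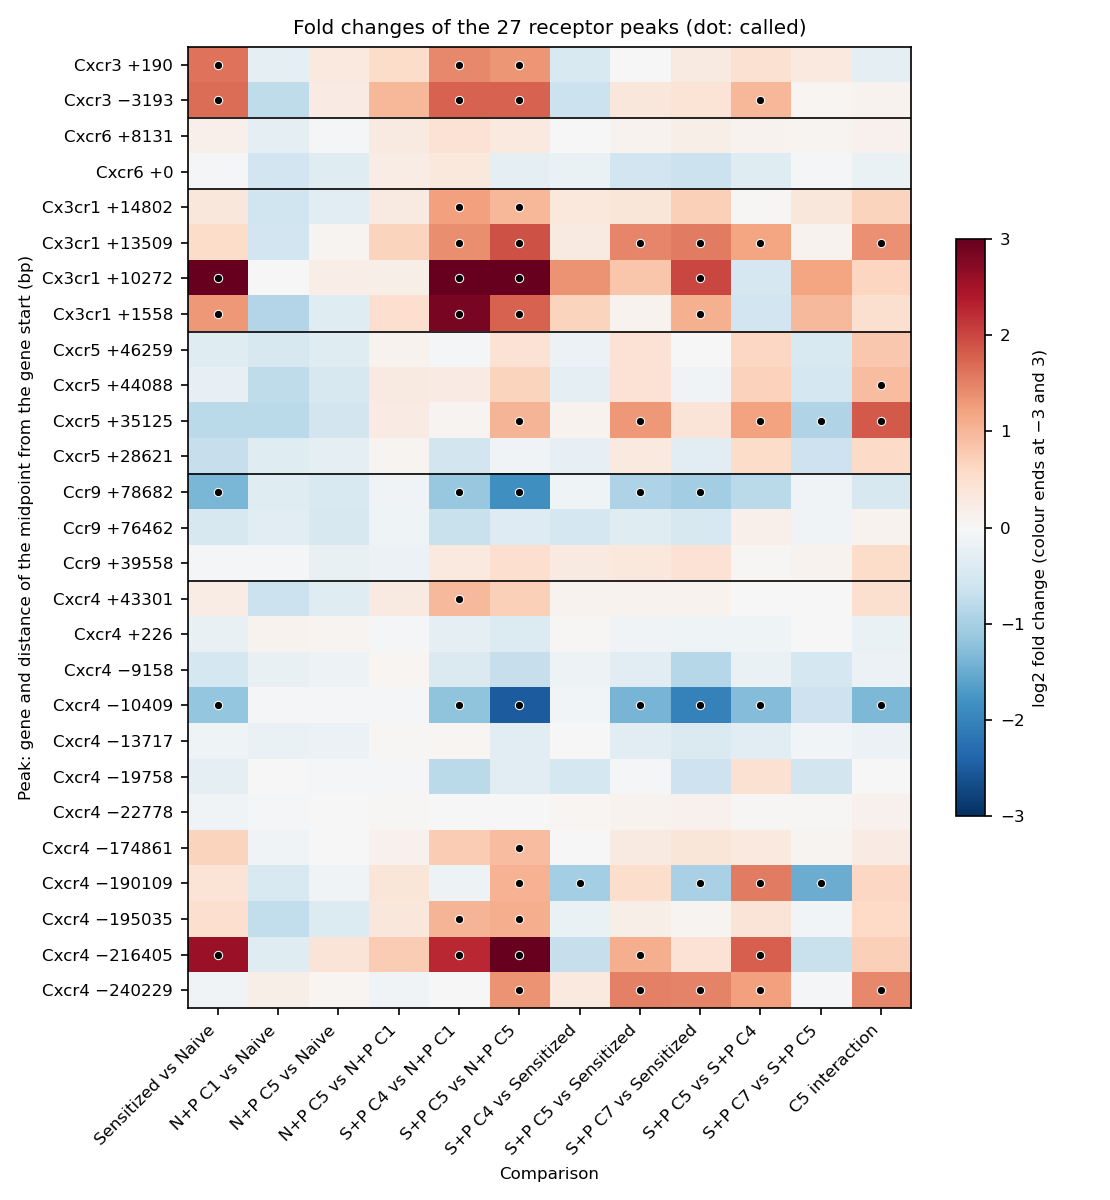
Log2 fold change of each of the 27 peaks (rows, by gene and by distance in bp of the midpoint from the gene start) in each of the 12 comparisons (columns). Colour runs from blue (lower in the group named first) to red (higher) and ends at −3 and 3, and a dot marks a called peak. The 3 comparisons within unsensitized mice hold no dot, and Cxcr4 holds both blue and red rows. With loess offsets 6 of the dots at Cx3cr1 +1558, Cx3cr1 +13509 and Cxcr4 −216405 turned in direction.

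Cxcr3, the receptor for Cxcl9, Cxcl10 and Cxcl11, was more open in sensitized than in unsensitized mice at both of its peaks. They lie on the X chromosome, 1 at the promoter (Cxcr3 +190, 100777311 to 100778060) and 1 between genes (Cxcr3 −3193, 100780586 to 100781551). At the promoter, Naive libraries held 85.4, 129 and 102 normalized counts, N+P C1 92.9, 88.6 and 81.0, with N+P C5 at 127, 132 and 130. Sensitized libraries held 418, 470.0, 213 and 202, S+P C4 238, 219, 272 and 216, S+P C5 315, 277, 362 and 335, and S+P C7 473, 371, 426 and 313. Every library of a sensitized mouse lay above every library of an unsensitized mouse. The log2 fold change was 1.62 ± 0.25 (SE) for Sensitized against Naive (DESeq2 adjusted p = 4.78e-09), 1.43 ± 0.26 for S+P C4 against N+P C1 (1.15e-06) and 1.32 ± 0.25 for S+P C5 against N+P C5 (1.48e-06). The first was 2.06 without Sensitized replicates 3 and 4. These calls stood under every alternative run. Of the peak lists that the authors called per group and merged, only that of S+P C5 held the promoter peak, which was high there.

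The upstream Cxcr3 peak was also higher in sensitized mice. Naive libraries held 93.7, 126 and 123 normalized counts, N+P C1 63.0, 68.4 and 71.6, with N+P C5 at 149, 133 and 124. Sensitized libraries held 494, 588, 188 and 195, and S+P C4 194, 201, 337 and 196.5. The S+P C5 counts were 392, 464, 595 and 406, with S+P C7 at 457, 567, 573 and 347. The unsensitized and sensitized libraries did not overlap here either. Log2 fold changes were 1.67 ± 0.32 for Sensitized against Naive (adjusted p = 5.57e-06), or 2.23 without Sensitized replicates 3 and 4, and 1.78 ± 0.34 and 1.78 ± 0.32 for the sensitized against the unsensitized C4 to C1 and C5 pairs (2.44e-06 and 4.46e-07). Within S+P mice it was higher in C5 than in C4 by 1.00 ± 0.30 (0.0125), a call lost without S+P C5 replicate 3 (0.85). N+P C5 held more than N+P C1 in all libraries, with a log2 difference of 1.00 ± 0.36 that had an adjusted p of 1.0 in the fit over all libraries and 0.071 in a fit to these 6. Without Sensitized replicates 3 and 4, S+P C4 was lower than Sensitized at both Cxcr3 peaks, by −0.91 (7.59e-05) at the promoter and −1.21 (9.75e-05) upstream, against −0.46 and −0.65 with them (0.249 and 0.205).

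Cx3cr1, the receptor for the membrane-bound chemokine Cx3cl1, had the largest fold changes among the receptors with size factors. With loess offsets the largest was that of Cxcr4 −10409 (−2.58, S+P C5 against N+P C5). Its 4 peaks lie on chromosome 9 inside the gene, 1 of them at a promoter (Cx3cr1 +1558, 119897179 to 119897596) and 3 in an intron. At the intron peak Cx3cr1 +10272 (119888400 to 119888947), Naive libraries held 4.13, 7.87 and 7.57 normalized counts, N+P C1 0.0, 5.61 and 17.0, and N+P C5 5.03, 13.7 and 4.81. Sensitized libraries held 161, 123, 20.6 and 48.8, S+P C4 95.3, 189.5, 339.5 and 271, S+P C5 129, 205, 129.5 and 169, and S+P C7 308, 325, 442 and 351. The peak was near the floor in every unsensitized library and highest in C7, where each library lay above all of Sensitized and all of S+P C5. Only the authors' list for S+P C7 held it, so it entered the count table through the group where it was highest.

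The log2 fold change at Cx3cr1 +10272 was 3.72 ± 0.63 for Sensitized against Naive (adjusted p = 1.06e-07), 5.06 ± 0.66 for S+P C4 against N+P C1 (7.52e-13) and 4.36 ± 0.63 for S+P C5 against N+P C5 (1.31e-10). With so few counts on the lower side these values move with single libraries. They were 4.4 without N+P C1 replicate 1, 6.33 without N+P C1 replicate 3, 5.0 without N+P C5 replicate 2 and 4.39 without Sensitized replicates 3 and 4. With loess offsets they fell to 0.9, 1.99 and 0.52, and only the second kept its call. S+P C7 exceeded Sensitized by 2.01 ± 0.50 (0.000402), by 1.33 without Sensitized replicates 3 and 4 (0.0102) and by 0.59 with loess offsets (0.207).

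C7 and C5 of S+P mice differed at Cx3cr1 under some of the fits. C7 was higher by 1.18 ± 0.50 at +10272 (adjusted p = 0.159) and by 0.97 ± 0.40 at the promoter (0.138) in the fit over all libraries. With the replicate number as a block, under which libraries of the same number varied together, the values were 1.2 (7.41e-11) and 0.98 (1.14e-07), so that 2 opening peaks joined the 2 closing ones, 4 calls against 2. Over all peaks the block called 0.414% as opening and 2.86% as closing, against 0.266% and 2.11% without it. A fit to these 8 libraries alone called both as well (5.69e-07 and 0.00239), beside 0.436% of all peaks as opening, as did loess offsets (0.0248 and 0.0731). The promoter was also called without S+P C7 replicate 1 (1.1, 0.0908). With loess offsets C5 was also called lower than C4 at +10272 (−2.03 against −0.51) and at the promoter (−1.38 against −0.57). S+P C4 held more than Sensitized at +10272 by 1.35 ± 0.51 (0.108), called with TMM factors (0.0972), with total counts (0.0894), with loess offsets (0.0202) and when either S+P C4 replicate 1 (0.0324) or Sensitized replicate 1 (0.00594) was left out. The difference was 0.67 (0.435) without Sensitized replicates 3 and 4. S+P C5 differed from Sensitized at +10272 by 0.84 ± 0.50 (0.208), which was 1.3 and called (0.0266) without Sensitized replicate 1, 1.19 and called (0.092) with the replicate number as a block, and 0.15 (0.891) without Sensitized replicates 3 and 4.

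The Cx3cr1 promoter followed the intron peak, and it too entered the count table through the S+P C7 list alone. Naive libraries held 53.7, 64.9 and 43.5 normalized counts, N+P C1 25.4, 43.7 and 17.0, and N+P C5 20.1, 60.3 and 45.7. Sensitized libraries held 221, 189, 66.5 and 53.7, S+P C4 136, 167.5, 290.0 and 243, S+P C5 93.9, 167, 135 and 172, and S+P C7 199, 266, 351 and 290.5. Every S+P library lay above every unsensitized library, while Sensitized replicate 4 lay within the Naive range and replicate 3 just above it. S+P C4 exceeded N+P C1 by 2.85 ± 0.46 (2.1e-08), or 1.15 with loess offsets (0.0166), and S+P C5 exceeded N+P C5 by 1.76 ± 0.45 (0.00038), a direction that turned to −0.32 with loess offsets. Sensitized exceeded Naive by 1.30 ± 0.44 (0.0246), by 1.93 without Sensitized replicates 3 and 4 (8.69e-06), and by −0.12 with loess offsets. That call was lost without Sensitized replicate 1 (0.93) or 2 (1.08) and in a fit to these groups alone (0.12 as the adjusted p). S+P C7 exceeded Sensitized by 1.06 ± 0.40 (0.0212), lost without Sensitized replicate 3 (0.84), replicate 4 (0.8) or both (0.43) and with loess offsets (0.27). S+P C4 differed from Sensitized by 0.67 ± 0.40 (0.362), called without Sensitized replicate 1 (1.04, 0.0503) and at 0.04 (0.978) without replicates 3 and 4.

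Another Cx3cr1 peak was highest in the PD1+ subsets of S+P mice, though it entered the count table through the S+P C5 list alone. At Cx3cr1 +13509 (119885176 to 119885696), Naive libraries held 60.6, 71.8 and 54.3, N+P C1 29.9, 65.0 and 28.3, and N+P C5 59.4, 71.3 and 67.3. Sensitized libraries held 127, 94.2, 72.8 and 70.5, and S+P C4 74.9, 132, 153 and 76.1. The S+P C5 counts were 237, 347, 222 and 195.5, with S+P C7 at 238, 400.0, 302 and 140.5. Every C5 library of S+P mice lay above all Sensitized and all S+P C4 libraries, and the lowest C7 library above all Sensitized libraries. S+P C5 exceeded Sensitized by 1.46 ± 0.32 (adjusted p = 0.000115) and S+P C4 by 1.19 ± 0.32 (0.00455), and S+P C7 exceeded Sensitized by 1.56 ± 0.32 (9.61e-06). The differences from Sensitized were 1.18 (0.0275) in C5 and 1.28 (0.00678) in C7 without Sensitized replicates 3 and 4. With loess offsets the 3 values were 0.61, 0.44 and 0.65 and none was called. The C5 interaction was 1.37 ± 0.50 (0.0382), not called without Naive replicate 2 (1.25), without Sensitized replicates 3 and 4 (1.09) or with loess offsets (0.6). S+P exceeded N+P by 1.40 ± 0.37 for C4 against C1 (0.00123) and 1.92 ± 0.35 for C5 (5.13e-07), and both turned with loess offsets, to −0.19 and −0.01.

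The fourth peak, Cx3cr1 +14802 (119883702 to 119884585), was open in all groups. Naive libraries held 405, 477 and 419 normalized counts, N+P C1 273, 289 and 303, and N+P C5 326, 349.5 and 374. S+P C4 held 378, 792, 815 and 722, S+P C5 603, 771, 709 and 718, and S+P C7 714, 1066, 924.5 and 863. S+P C4 exceeded N+P C1 by 1.24 ± 0.21 (1.35e-07) and S+P C5 exceeded N+P C5 by 1.00 ± 0.21 (1.46e-05), and both calls stood under every alternative run. Sensitized libraries, with 738, 610.4, 414.5 and 421, split as at the other peaks and did not pass against Naive (0.33 ± 0.21, 0.312).

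**Figure D2:**
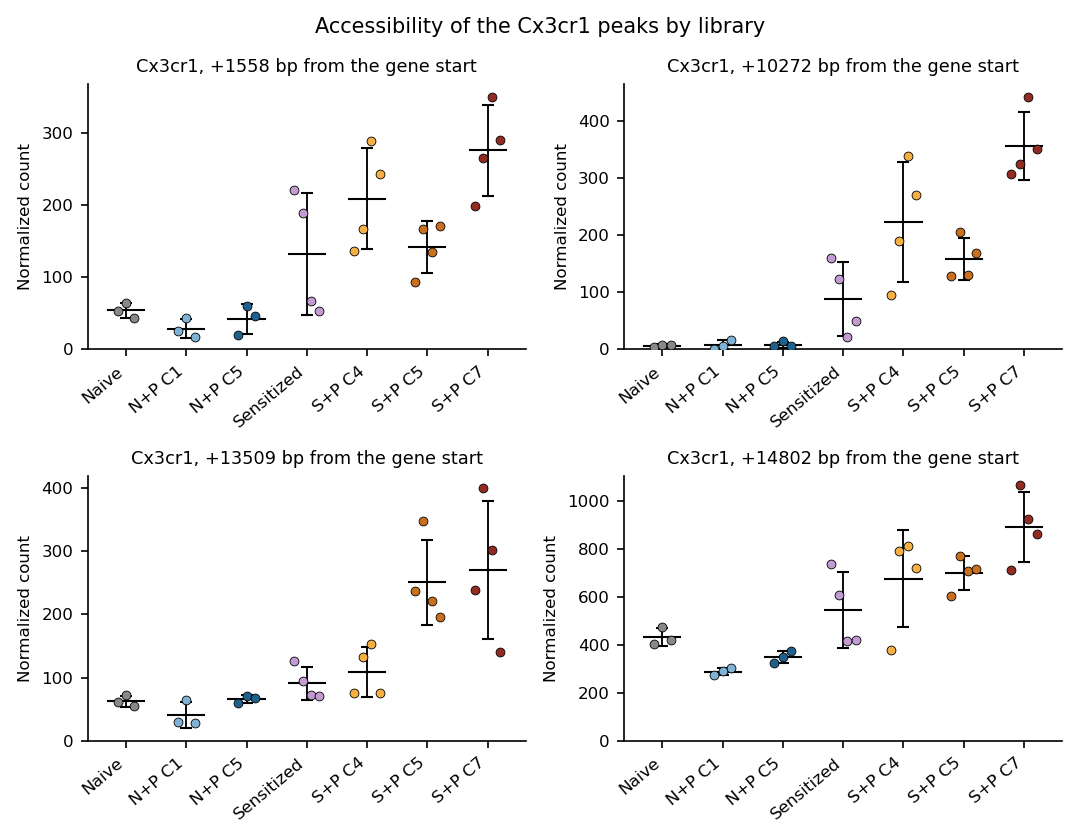
Normalized counts of the 4 Cx3cr1 peaks in each library (points), with the group mean and SD (bars), for the 7 groups on the horizontal axis. At +10272 the 9 unsensitized libraries lie at 17.0 or below and the 4 S+P C7 libraries between 308 and 442. The excess of S+P C5 over N+P C5 at +1558 and +13509 turned in direction with loess offsets.

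Cxcr6, the receptor for Cxcl16 and a marker of tissue-resident T cells, had 2 peaks, and neither was called in any of the 12 comparisons or under any alternative run. The promoter peak (Cxcr6 +0, chromosome 9, 123635340 to 123635728) held 435, 385.5 and 269 normalized counts in Naive libraries, and N+P C1 held 220.1, 270.3 and 234. The counts in N+P C5 were 247.5, 273 and 326. Sensitized libraries held 431, 314, 319 and 316, S+P C4 350.5, 273, 279 and 307, S+P C5 240, 263, 225 and 204.5, and S+P C7 162, 255, 240 and 234. All libraries of C5 and C7 of S+P mice lay below all Sensitized libraries. The log2 differences from Sensitized, −0.57 ± 0.17 for C5 (adjusted p = 0.00652) and −0.64 ± 0.17 for C7 (0.000881), passed on p and missed the fold threshold, also without Sensitized replicates 3 and 4 (−0.68 and −0.75). The other peak lies 8131 bp downstream inside Fyco1, and its group means ranged from 422 (N+P C1) to 654 (S+P C7).

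Cxcr5, the receptor for the B cell follicle chemokine Cxcl13, was most open in C5 of S+P mice at 3 of its 4 peaks, by group means. All of them lie inside the gene on chromosome 9. The promoter peak (Cxcr5 +35125, 44437566 to 44438532) lies 170 bp upstream of a shorter transcript of the gene. There, Naive libraries held 456, 412 and 267 normalized counts, N+P C1 192.5, 275 and 183, and N+P C5 265, 271 and 239. Sensitized libraries held 234, 190, 219 and 214, and S+P C4 364, 238, 211 and 127. The S+P C5 counts were 495, 667, 512 and 434, with S+P C7 at 282, 369, 315 and 158. Each C5 library of S+P mice lay above every other S+P library and above every Sensitized and N+P library. The peak entered the count table through the S+P C5 list alone, so its excess in that group was partly set by the selection.

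At the Cxcr5 promoter, S+P C5 exceeded Sensitized by 1.30 ± 0.26 on the log2 scale (adjusted p = 1.86e-05; 1.31 without Sensitized replicates 3 and 4) and S+P C4 by 1.2 ± 0.26 (0.000188), under every alternative run. It exceeded N+P C5 by 1.03 ± 0.28 (0.000889), or 0.9 without S+P C5 replicate 2, which was not called. S+P C7 was lower than C5, by −0.91 ± 0.26 (0.0119), not called without S+P C5 replicate 2 (−0.78) or S+P C7 replicate 4 (−0.71). N+P C5 differed from Naive by −0.55 ± 0.30, which was not called and had overlapping ranges, and the interaction was 1.84 ± 0.39 (0.00068), called under every alternative run. Sensitized was lower than Naive by −0.82 ± 0.28 (0.0249), inside the fold threshold, and by −1.02 (0.00525) without Naive replicate 3. N+P C1 was lower than Naive by −0.80 ± 0.30, with overlapping ranges.

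At Cxcr5 +44088 (44428699 to 44429473), S+P C5 libraries held 361, 421, 464 and 313 normalized counts, Sensitized 361, 309, 244 and 240, N+P C5 251.5, 264.5 and 218, and Naive 388.5, 364 and 282. The interaction, 0.92 ± 0.33 (0.0354), barely exceeded the fold threshold. The call was lost without Naive replicate 1 (0.83) or 2 (0.88), N+P C5 replicate 3 (0.85), Sensitized replicate 3 (0.85) or 4 (0.85), S+P C5 replicate 2 (0.89) or 3 (0.83), without Sensitized replicates 3 and 4 (0.71), or with loess offsets (0.8). The nearest gene start to this peak and to Cxcr5 +46259 is that of Bcl9l. Cxcr5 +46259 and Cxcr5 +28621 were not called, with interactions of 0.80 ± 0.27 (0.028) and 0.57 ± 0.37 (0.245), though the first was called without Naive replicate 3 (0.95, 0.00401). Cxcr5 +28621, with the most counts of the 4, had its highest mean in Naive (674.8), followed by N+P C5 (554.6), N+P C1 (523.6), S+P C5 (516.1), Sensitized (421.5), S+P C4 (358.5) and S+P C7 (337.5).

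Ccr9, the receptor for the gut and thymus chemokine Ccl25, closed at 1 of its 3 peaks. All 3 lie inside the longest annotated Ccr9 transcript on chromosome 9 and are nearer to the start of Lztfl1, whose promoter holds 1 of them. Ccr9 +78682 (123585540 to 123586186) lies 10413 bp upstream of shorter Ccr9 transcripts. Naive libraries held 552, 529 and 413 normalized counts, N+P C1 429, 424 and 313, and N+P C5 314, 384 and 391. Sensitized libraries held 81.9, 133, 288 and 270, S+P C4 231, 250.5, 86.3 and 149, S+P C5 131, 142, 63.9 and 71.6, and S+P C7 145, 128, 46.4 and 58.5. Every sensitized library lay below every unsensitized library.

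The log2 fold change at Ccr9 +78682 was −1.36 ± 0.41 for Sensitized against Naive (adjusted p = 0.00907), −2.22 without Sensitized replicates 3 and 4 (2.85e-06). It was −1.83 ± 0.42 for S+P C5 against N+P C5 (6.37e-05) and −1.13 ± 0.42 for S+P C4 against N+P C1 (0.0212), the latter lost without S+P C4 replicate 3 (−0.89). Against Sensitized, S+P C5 was lower by −0.92 ± 0.39 (0.0632) and S+P C7 by −1.04 ± 0.39 (0.0215). Neither stood without Sensitized replicate 3 (−0.67 and −0.78), replicate 4 (−0.72 and −0.83) or both (−0.07 and −0.19). The first was also lost without S+P C5 replicate 3 (−0.75) or 4 (−0.79) and in a fit to these groups alone (adjusted p = 0.143), the second without S+P C7 replicate 3 (−0.82) or 4 (−0.86). S+P C5 was lower than S+P C4 by −0.81 ± 0.39 (0.209), called without S+P C4 replicate 3 (−1.04, 0.0595). The Lztfl1 promoter peak (Ccr9 +39558) and Ccr9 +76462 were not called.

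Cxcr4, the receptor for Cxcl12 that holds cells in bone marrow and lymphoid tissue, had the most peaks, and they moved in both directions. The 12 peaks lie on chromosome 1 between 43301 bp downstream and 240229 bp upstream of the start. The promoter peak (Cxcr4 +226, 128518382 to 128521254) was not called. Its group means ran from 1258 ± 113 (SD, n = 4) in S+P C7 to 1739 ± 39.4 (n = 3) in N+P C1, and S+P C5 was lower than N+P C5 by −0.42 ± 0.09 (adjusted p = 1.86e-05). Per kb the promoter held 438 to 605 normalized counts in the group means and the peak Cxcr4 −22778 held 834 to 915. That peak did not pass in any comparison, with log2 differences of at most 0.14 ± 0.08 (0.131).

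Within 20 kb upstream, Cxcr4 −10409 (128529827 to 128531079) closed. Naive libraries held 822, 814 and 809 normalized counts, N+P C1 702, 862 and 823, and N+P C5 714, 763 and 867. Sensitized libraries held 184, 192, 582 and 508.2, S+P C4 510.4, 387, 240.5 and 247, S+P C5 238, 94.9, 91.6 and 128, and S+P C7 144, 73.2, 41.4 and 99.8. Every sensitized library lay below every unsensitized library, and the S+P C5 libraries lay below those of S+P C4. The log2 fold change was −2.49 ± 0.39 for S+P C5 against N+P C5 (3.44e-09), −1.21 ± 0.39 for S+P C4 against N+P C1 (0.00786) and −1.30 ± 0.36 for S+P C5 against S+P C4 (0.0064), called under every alternative run.

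Against Sensitized the same Cxcr4 −10409 peak was lower by −2.02 ± 0.37 in S+P C7 (7.51e-07) and by −1.40 ± 0.36 in S+P C5 (0.00176). Without Sensitized replicates 3 and 4 these were −1.04 (0.0249) and −0.42 (0.551). Sensitized was lower than Naive by −1.15 ± 0.39 (0.0223), by −2.12 without Sensitized replicates 3 and 4 (1.46e-07), and was not called without Sensitized replicate 2 (−0.94, 0.115). The C5 interaction, −1.34 ± 0.55 (0.0649), was lost in each of 9 fits that left out 1 library, with adjusted p of 0.107 to 0.171, and with total counts (0.108), and was −0.36 (0.678) without Sensitized replicates 3 and 4. These libraries were Naive replicates 1, 2 and 3 (−1.34, −1.34 and −1.33), N+P C5 replicates 2 and 3 (−1.35 and −1.26), Sensitized replicates 3 and 4 (−1.02 and −1.13) and S+P C5 replicates 2 and 3 (−1.19 and −1.18). The neighbouring peak Cxcr4 −9158 fell with it but stayed inside the fold threshold, with −0.86 ± 0.12 for S+P C7 against Sensitized (2.64e-11) and −0.52 ± 0.12 for S+P C7 against S+P C5 (0.00132). The first was called without S+P C7 replicate 1 (−0.96) or Sensitized replicate 3 (−0.91), or without Sensitized replicates 3 and 4 (−0.93).

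Cxcr4 −190109 (128709662 to 128710644), between genes, was highest in C5 of S+P mice by group means. Naive libraries held 231, 223 and 293 normalized counts, N+P C1 181, 203 and 158, and N+P C5 225, 251 and 222. Sensitized libraries held 336, 435.5, 268 and 295, S+P C4 252, 162, 134 and 123, S+P C5 425, 580.1, 544 and 369, and S+P C7 179, 247, 166 and 97.2. Every C5 library of S+P mice lay above every C4 and C7 library of S+P mice. C5 exceeded C4 by 1.55 ± 0.24 (2.86e-08), and C7 was lower than C5 by −1.49 ± 0.24 (5.51e-07), under every alternative run. S+P C5 exceeded N+P C5 by 1.04 ± 0.26 (0.000251), not called with loess offsets (0.88). Against Sensitized, S+P C5 differed by 0.52 ± 0.23 (0.0849), which was not called and had overlapping ranges. S+P C4 was lower than Sensitized by −1.03 ± 0.24 (0.00363) and S+P C7 by −0.97 ± 0.24 (0.000356), and neither was called without Sensitized replicate 2 (−0.88 and −0.82), nor the first without S+P C4 replicate 4 (−0.9) or the second without S+P C7 replicate 4 (−0.76). Both were larger in size without Sensitized replicates 3 and 4, at −1.24 (0.00153) and −1.18 (0.000654).

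Cxcr4 −216405 (128736206 to 128736692) was nearly closed in unsensitized mice. Naive libraries held 23.4, 17.7 and 25.2 normalized counts, N+P C1 11.1, 8.97 and 33.9, and N+P C5 23.1, 24.7 and 39.7. Sensitized libraries held 237, 189, 47.0 and 59.1, S+P C4 78.3, 76.6, 115 and 59.0, S+P C5 229, 401, 297 and 218, and S+P C7 173, 243, 204 and 104. All sensitized libraries lay above all unsensitized ones, and all S+P C5 above all S+P C4 libraries. The peak entered the count table through the S+P C5 list alone, the group with its highest mean. S+P C5 exceeded N+P C5 by 3.29 ± 0.49 (5.09e-10) and S+P C4 by 1.80 ± 0.44 (0.00123), and Sensitized exceeded Naive by 2.58 ± 0.50 (4.75e-06) and by 3.26 without Sensitized replicates 3 and 4, all 3 below the threshold with loess offsets (0.35, 0.66 and 0.48). S+P C4 exceeded N+P C1 by 2.26 ± 0.53 (0.000178), or 3.03 without N+P C1 replicate 3, and this direction turned to −0.08 with loess offsets. S+P C5 exceeded Sensitized by 1.10 ± 0.43 (0.0465), a direction that turned to −0.03 with loess offsets and a call lost without Sensitized replicate 3 (0.82) or 4 (0.86), both (0.42) or S+P C5 replicate 2 (0.9), and in a fit to these groups alone (adjusted p = 0.107). S+P C4 was lower than Sensitized by −0.70 ± 0.44 (0.394), and by −1.38 (0.0126) without Sensitized replicates 3 and 4.

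The peak farthest upstream, Cxcr4 −240229 (128759931 to 128760616), was outside the rule for named peaks and was chosen after its values were seen. Naive libraries held 171, 247 and 189 normalized counts, N+P C1 201, 220 and 262, and N+P C5 197, 219 and 221. Sensitized libraries held 163, 161, 193 and 237, and S+P C4 201, 223, 208 and 283. The S+P C5 counts were 567, 831, 356 and 414, with S+P C7 at 609, 855, 341 and 317. The PD1+ subsets of S+P mice lay above every other library. The peak entered the count table through the S+P C7 list alone, so its high values there were partly set by the selection. C5 exceeded Sensitized by 1.52 ± 0.27 (1.5e-06) and S+P C4 by 1.23 ± 0.28 (0.000314), C7 exceeded Sensitized by 1.49 ± 0.27 (9.06e-07), C5 of S+P exceeded C5 of N+P by 1.35 ± 0.30 (3.54e-05), and the interaction was 1.45 ± 0.42 (0.0116). Leaving out Sensitized replicates 3 and 4 gave 1.74 in C5 and 1.71 in C7 against Sensitized, and 1.67 for the interaction. All of these calls stood under every alternative run, and C7 and C5 differed by −0.03 ± 0.27.

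Of the other Cxcr4 peaks, 3 were called as opening in S+P against N+P. Cxcr4 −195035 was called for C4 against C1 (1.03 ± 0.23) and for C5 (1.09 ± 0.23), Cxcr4 −174861 for C5 (0.92 ± 0.18, lost without S+P C5 replicate 2, 0.84) and Cxcr4 +43301 for C4 against C1 (0.98 ± 0.22, lost without S+P C4 replicate 2, 0.86). Cxcr4 −174861 was also called for C4 against C1 without N+P C1 replicate 3 (0.93, against 0.76 with it). Cxcr4 −13717 was not called, and Cxcr4 −19758 missed the fold threshold in S+P C4 against N+P C1 (−0.82 ± 0.18, 7.22e-05), called without S+P C4 replicate 1 (−0.95) or 2 (−0.93). The 5 peaks more than 100 kb away all lie upstream of Cxcr4, and leaving them out lowered the opening calls of S+P C5 against S+P C4 from 6 to 3 and those of S+P C5 against N+P C5 from 12 to 7.

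**Figure D3:**
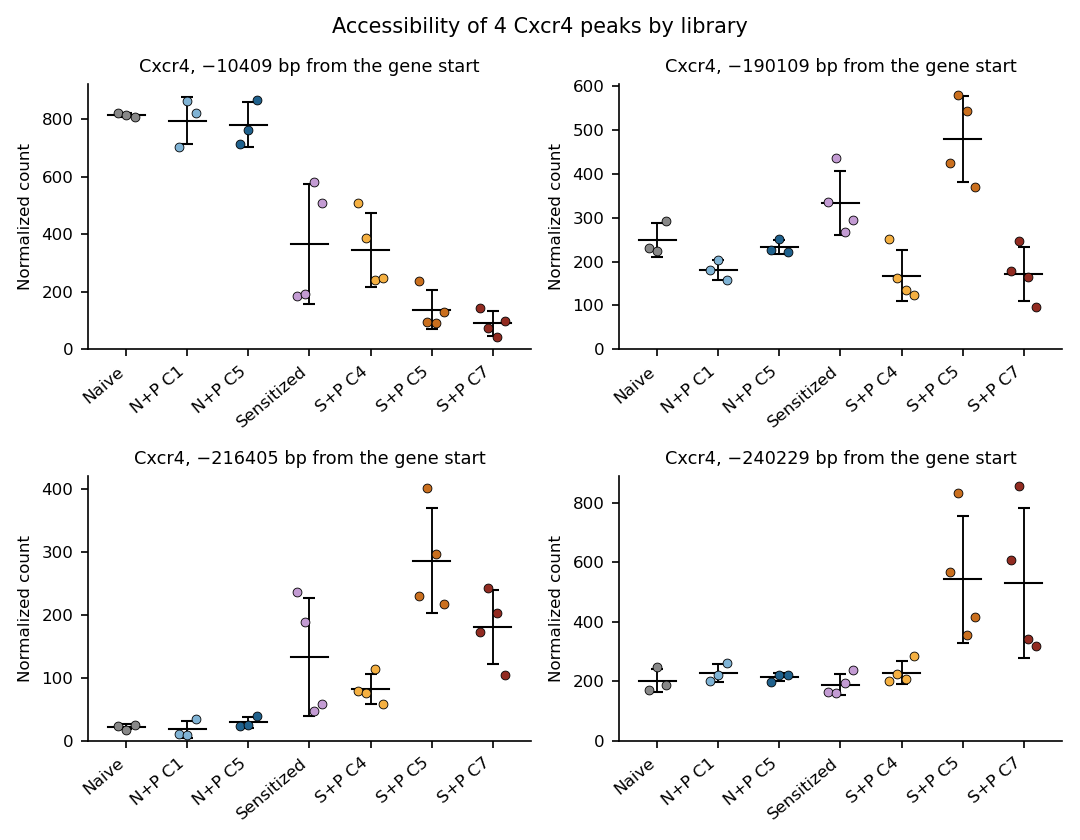
Normalized counts of 4 Cxcr4 peaks in each library (points), with the group mean and SD (bars). The peak at −10409 is lower in every sensitized library, and the peak at −240229 is higher in S+P C5 and S+P C7 than in all other libraries. The peak at −190109 has its highest mean in S+P C5 (369 to 580.1), whose range overlaps that of Sensitized. At −216405 the differences of S+P C5 from Sensitized and of S+P C4 from N+P C1 turned in direction with loess offsets.

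Ccr2, the receptor for the monocyte chemokine Ccl2, had no peak by the rule. For Ccr4 the nearest peak lay 61296 bp away in an exon nearest to Tmppe, and for S1pr5 it was the promoter peak of Atg4d at 16815 bp. Nothing follows from these distances about Ccr2, Ccr4 and S1pr5.

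The peak lists that the authors called per group are a second readout. The S+P C5 list held 22 of the 27 peaks (of 11384 peaks in the list), Naive and Sensitized 16 each (of 8638 and 9792), N+P C5 13 (of 8479), N+P C1 and S+P C7 12 each (of 8602 and 8799) and S+P C4 4 (of 3788). The lists differ in size, so these counts are not a comparison of openness. For the counts that follow, shares over all peaks are not given. Single lists held 8 of the peaks. Cx3cr1 +10272, Cx3cr1 +1558 and Cxcr4 −240229 were in that of S+P C7 alone. Cxcr3 +190, Cxcr5 +35125, Cxcr5 +46259, Cx3cr1 +13509 and Cxcr4 −216405 were in that of S+P C5 alone. These peaks entered the merged table through that list, so a high value in its group was partly set by how they were selected. Cxcr4 −10409 was in the Naive, N+P C1 and N+P C5 lists. All 7 lists held 2 peaks, Cxcr4 −22778 and Cxcr4 −174861. The q-value was under 0.05 in 9 of the 95 list entries.

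Other genes of the pathway were read as 3 lists, counted by the same rule for peaks and given beside all peaks with no test of the list. The ligand list (Ccl3, Ccl4, Ccl5, Xcl1, Cxcl10, Cxcl11 and Ccl25 had peaks) held 17 peaks. In Sensitized against Naive 9 of the 17 were called as opening and 0 as closing (7.22% and 1.4% of all peaks), with a median log2 fold change of 1.22 against −0.01 over all peaks. The counts were 11 and 1 without Sensitized replicates 3 and 4 (9.44% and 5.73%). In S+P C5 against N+P C5 it was 11 and 0 (10.3% and 6.97% of all peaks), with a median of 1.50 against 0.0. With loess offsets these ligand counts were 8 and 0 (5.26% and 2.62%), and 10 and 0 (6.62% and 8.46%). Ccl5, a chemokine made by effector T cells, held a promoter peak that rose by 1.87 ± 0.32 with sensitization (adjusted p = 1.44e-07), or 2.41 without Sensitized replicates 3 and 4. A peak upstream of Cxcl11, in an intron of another gene, had 249.9 normalized counts in S+P C5, 62.1 in S+P C4 and 39.4 in Sensitized. S+P C5 exceeded Sensitized there by 2.67 ± 0.37 (1.15e-10), or 2.19 without Sensitized replicates 3 and 4. With loess offsets this Cxcl11 difference was 0.49 and not called (0.35).

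The list of other receptors held 38 peaks, of which 7 opened and 4 closed in Sensitized against Naive (7.22% and 1.4% of all peaks). Counts were 11 and 4 in S+P C5 against N+P C5 (10.3% and 6.97%), and 12 and 0 in S+P C4 against N+P C1 (9.62% and 2.99%). With loess offsets the 3 splits were 5 and 4 (5.26% and 2.62%), 6 and 4 (6.62% and 8.46%) and 11 and 1 (7.16% and 5.87%). Without Sensitized replicates 3 and 4 the first was 13 and 5 (9.44% and 5.73%). In S+P C7 against Sensitized 7 of the 38 opened and 12 closed (3.84% and 8.03% of all peaks), with a median of −0.08 against 0.0 over all peaks. Leaving out Sensitized replicates 3 and 4 gave 3 and 10 (2.03% and 4.93%), and loess offsets gave 3 and 12 (1.72% and 8.8%). In S+P C5 against S+P C4 1 opened and 0 closed (3.12% and 2.0%). Ccr7, which brings T cells into lymph nodes, closed at an intergenic peak upstream by −1.86 ± 0.27 in S+P C7 against Sensitized (1.8e-10), and S1pr1, needed to leave them, at an intergenic peak upstream by −1.30 ± 0.16 (2.8e-13). Another intergenic S1pr1 peak opened, by 1.37 ± 0.21 in S+P C5 against Sensitized (3.87e-09) and by 2.07 ± 0.23 in S+P C5 against N+P C5 (8.32e-17). A peak of Gpr183, a receptor for oxysterols, opened in S+P C5 against S+P C4 by 1.96 ± 0.25 (1.43e-12), and another closed in S+P C7 against Sensitized by −1.72 ± 0.24 (3.2e-11). Both Gpr183 peaks lie upstream of that gene, in an intron of another gene. Without Sensitized replicates 3 and 4, the differences of S+P C7 from Sensitized were −1.34 at Ccr7, −1.32 at S1pr1 and −2.06 at Gpr183, that of S+P C5 at the other S1pr1 peak was 1.05, and all 4 were called. The list of signalling genes downstream of the receptors held 41 peaks, of which 10 opened and 2 closed in Sensitized against Naive (7.22% and 1.4% of all peaks, medians 0.05 and −0.01), or 11 and 4 without Sensitized replicates 3 and 4 (9.44% and 5.73%), and 10 and 6 in S+P C5 against N+P C5 (10.3% and 6.97%, medians 0.26 and 0.0). Loess offsets gave 8 and 2 (5.26% and 2.62%), and 7 and 6 (6.62% and 8.46%). Rgs1, which shortens signals of these receptors, rose at an intergenic peak by 3.35 ± 0.40 in Sensitized against Naive (2.43e-14), or 3.87 without Sensitized replicates 3 and 4 and 2.06 with loess offsets, and Rgs2 closed by −1.53 ± 0.24 in S+P C5 against N+P C5 (1.83e-09).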

How the data were processed

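Raw read counts over 13527 merged peaks in 25 libraries were used as deposited by the authors. Per the labels and methods, the authors trimmed reads with cutadapt 3.4, aligned them to GRCm39 with Bowtie2 2.2.9, removed duplicates with Picard 2.21.8, called peaks with Genrich 0.6.1 in ATAC mode, merged the reproducible peaks with bedtools 2.27.1 and counted reads per library with deepTools. The 7 deposited group lists hold the q-value of each peak that the authors kept across replicates. All 25 count columns were matched to samples by name. A merged set counts only sites called somewhere, so a gene without a peak was not measured.

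Peaks were assigned to genes with GENCODE vM39, and a promoter peak had its midpoint within 1000 bp of a protein-coding transcript start. DESeq2 1.42.0 (R 4.3.3, Wald test, Benjamini-Hochberg adjustment over all peaks) was fitted once to the 25 libraries by group, without covariates, and 12 comparisons were read from it. Calls needed an adjusted p below 0.1 and a log2 fold change beyond 0.9 in size. Values after ± are SE for log2 fold changes and SD for group means. The fit was also run on simulated data with a fixed dispersion, and no result given here rests on that run. For each gene the named peaks were the promoter peak and up to 3 other called peaks with the smallest adjusted p, so that their p-values come from the strongest of several candidates. The receptors and gene lists were chosen with earlier results of these data known. The sequences shown for Cxcr3 −3193 and for the 3 Cxcr4 peaks were chosen after their values were seen.

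Alternatives were edgeR 4.0.16 (quasi-likelihood test), TMM factors, total counts, loess offsets (limma 3.58.1, span 0.3, fitted per library against the mean log2 count), no independent filter, a mean count of at least 100, an adjusted p under 0.05, fits to the compared groups only, the nearest start only, peaks within 100 kb, a replicate block and each library left out. In some of these fits, though not in the fit to the 25 libraries, DESeq2 replaced its parametric dispersion trend by a local one. Same-numbered libraries of the mice divided into subsets deviated together, with correlations of 0.4, 0.108 and 0.292 for N+P C1 and C5, of 0.572, 0.103, 0.313 and 0.51 for S+P C4 and C5, and of 0.771, 0.575, 0.522 and 0.63 for S+P C5 and C7, so the numbers were taken to pair them in these comparisons. Tables were made with Python 3.11.15, pandas 2.3.3 and numpy 2.4.6. Some items are not reported here.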

Additional observations from a re-analysis of the deposited data

Results flagged for a closer look

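In groups of 4, 2 of 56 tested had a library whose gap to the nearest other, divided by the range, exceeded the 95% critical value of Dixon's test. Chance gives about 0.05 of such groups. Sensitized replicate 1 held 431 normalized counts at the Cxcr6 promoter, against 314 to 319 in the other Sensitized libraries. S+P C4 replicate 3 held 337 at Cxcr3 −3193, against 194 to 201 in the others.

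The effect of pregnancy on C5 cells differed between sensitized and unsensitized mice by the interaction at 5 peaks. It was 1.84 at Cxcr5 +35125, 1.45 at Cxcr4 −240229, 1.37 at Cx3cr1 +13509, 0.92 at Cxcr5 +44088 and −1.34 at Cxcr4 −10409 on the log2 scale. The last 3 were lost when single libraries were left out. The labels name a PD1 and CD73 subset for the C5 libraries and none for the Sensitized and Naive libraries, so a difference in the cells sorted and an effect of pregnancy cannot be told apart here. The longer time since the graft in S+P than in Sensitized mice cannot be told apart from pregnancy either.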

How the results depend on the processing

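Of 51 named results, 25 kept direction and call under every alternative run, and 26 lost the call under at least 1. The low-count filter, edgeR, TMM factors and dropping the independent filter changed none of the 51. Loess offsets lost 13 and turned 6, namely Cx3cr1 +1558 for Sensitized against Naive (−0.12) and S+P C5 against N+P C5 (−0.32), Cx3cr1 +13509 for S+P C4 against N+P C1 (−0.19) and S+P C5 against N+P C5 (−0.01), and Cxcr4 −216405 for S+P C5 against Sensitized (−0.03) and S+P C4 against N+P C1 (−0.08). The cause was not tested. The largest shift of the median over all peaks was 0.0585 (total counts).

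Counts of called receptor peaks moved as follows. They describe how the processing moved the calls and not the receptors. With loess offsets they were 4 for Sensitized against Naive, 2 for S+P C4 against Sensitized, 4 for S+P C7 against Sensitized, 9 for S+P C5 against N+P C5, 4 for S+P C7 against S+P C5 and 3 for the C5 interaction. TMM factors and total counts each gave 2 for S+P C4 against Sensitized (0.591% and 0.569% of all peaks opening, 0.296% and 0.31% closing). Within 100 kb they were 0 for S+P C4 against Sensitized, 9 for S+P C5 against N+P C5, 4 for S+P C5 against S+P C4 and 1 for S+P C7 against S+P C5, since peaks were removed. Fits to the compared groups gave 1 for N+P C5 against N+P C1 (0.0665% of all peaks opening and 0% closing). They gave 4 for S+P C7 against S+P C5 (0.436% and 2.23%). Without Sensitized replicates 3 and 4, chosen after seeing the data, they were 4 for S+P C4 against Sensitized, 3 for S+P C5 against Sensitized and 2 for the interaction.

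Leaving out 1 library gave 5 to 8 for Sensitized against Naive, 0 to 1 for N+P C1 against Naive, 0 to 0 for N+P C5 against Naive and for N+P C5 against N+P C1, 0 to 3, 4 to 7 and 5 to 8 for S+P C4, C5 and C7 against Sensitized, 10 to 12 for S+P C4 against N+P C1, 12 to 14 for S+P C5 against N+P C5, 6 to 8 for S+P C5 against S+P C4, 1 to 3 for S+P C7 against S+P C5 and 2 to 5 for the interaction.

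The replicate block gave 4 calls for S+P C7 against S+P C5 (0.414% of all peaks opening and 2.86% closing). In comparisons whose libraries share only a number, the block gave 7 for Sensitized against Naive (7.27% opening and 3.59% closing). For S+P C4, C5 and C7 against Sensitized it gave 1, 6 and 6 (0.155% and 0.192%, 3.56% and 2.63%, and 4.32% and 7.75%). S+P C4 against N+P C1 gave 11 (8.77% and 2.68%) and S+P C5 against N+P C5 14 (10.6% and 6.94%). Both N+P subsets against Naive gave 0 (0.0231% and 0.438% for C1, 0.303% and 0.0517% for C5). The block gave 0 for N+P C5 against N+P C1 (0.0148% and 0%) and 7 for S+P C5 against S+P C4 (3.27% and 2.22%). Under the block Ccr9 +78682 was not called in S+P C5 (−0.84) and S+P C7 (−1.02) against Sensitized, and Cx3cr1 +10272 was called in S+P C5 against Sensitized (1.19, against 0.84 without the block). No paired fit of the interaction was run.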

Other observations

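Over the 25 libraries, the peaks outside the receptors whose normalized counts followed Cx3cr1 +10272 most closely were nearest to Mrpl38 (Pearson r = 0.988), Smndc1 (0.984) and Sp4 (0.982). Those closest to Cxcr4 −9158 were nearest to Fbxl21 (0.946), Tcf7 (0.945) and Limd2 (0.944), and those closest to Cxcr3 +190 to Tbl2 (0.974), Dhrs9 (0.966) and Galr1 (0.965). These correlations are descriptions, since the libraries fall into groups and the peaks were picked for their high correlation.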
